A study of Mus musculus with 6 samples.

Results

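Collagen chain genes encode the polypeptides that wind around each other to form the collagens, the structural proteins of the extracellular matrix. The members were all gene symbols written as Col, a type number, the letter a and a chain number in the deposited transcript tables. This gave 44 genes with 54 listed transcripts, out of 24346 gene symbols in all. By class, 11 were fibrillar (types I, II, III, V, XI, XXIV and XXVII), 6 belonged to basement membrane (type IV) and 27 to other types.

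The study measured RNA of prostate luminal cells, the secretory epithelium lining the gland, in a comparison of CSF1 with wild-type (WT) mice. CSF1 mice carried a mouse Csf1 transgene under the rat probasin promoter, which drives expression in prostate epithelium, and WT mice were their littermates. Both groups were C57BL/6 mice aged 4 months, and their luminal cells were isolated by fluorescence-activated sorting. The sources used here do not give the sort markers. Each group had 3 libraries, numbered 3, 5 and 8 in the sample titles. The labels leave unsaid whether every library is its own animal. The p-values therefore describe the spread between these samples, which may be technical.

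As background, fibrillar collagens form the cable-like fibrils of connective tissue and are known chiefly as products of fibroblasts and smooth muscle cells, which surround the prostatic glands. Type IV collagen forms a sheet-like network in the basement membrane under epithelia and around vessels and muscle cells. Most other types attach to fibrils, form beaded filaments, anchor the epithelium or span the cell membrane. Chains are hydroxylated and folded in the endoplasmic reticulum, assembled into trimers of fixed composition, exported, trimmed and cross-linked outside the cell.

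The transgene was seen in every library that should carry it. Csf1 was at 1082, 1326 and 1678 FPKM in CSF1 libraries 3, 5 and 8, against 1.54, 2.25 and 3.98 FPKM in WT libraries 3, 5 and 8. FPKM are fragments scaled to transcript length and to the mapped fragments of the library. Fragment totals are not given, but the deposited mean read depth per FPKM was 4.17 to 5.01 in CSF1 and 2.72 to 3.502 in WT libraries, so CSF1 libraries were the deeper ones. All 10 luminal markers were detected well enough to be tested, and 2 rose and 1 fell. Their summed level overlapped between groups, at 8455 to 17001 FPKM in CSF1 and 10750 to 30089 FPKM in WT libraries. Markers of other cells were also present, and their values stand beside the collagen results.

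The sequences bearing on the results are those just upstream of the start sites of chains that parted from their partners, of a pair of fibrillar chains with large changes, and of a gene whose listed transcripts use separate starts. Each is the 250 bases before a RefSeq start on GRCm38.p6, read along the gene's own strand. Capitals mark promoter motifs on either strand: the TATA box spelled TATAAA, the box spelled CCAAT, and the GC box spelled GGGCGG. The windows are chr10:76726045-76726294 (minus strand) for Col6a1, chr10:76623405-76623654 (minus) for Col6a2, chr1:90843972-90844221 (minus) for Col6a3, chr6:4505368-4505617 (plus) for Col1a2 and chr1:45311288-45311537 (plus) for Col3a1. For Col18a1 they are chr10:77166531-77166780 (minus) at the upstream start and chr10:77113706-77113955 (minus) at the downstream start. The RefSeq start of Col1a2 lies 79 bases from the start in the deposited tables, and the others lie at it.
Col6a1: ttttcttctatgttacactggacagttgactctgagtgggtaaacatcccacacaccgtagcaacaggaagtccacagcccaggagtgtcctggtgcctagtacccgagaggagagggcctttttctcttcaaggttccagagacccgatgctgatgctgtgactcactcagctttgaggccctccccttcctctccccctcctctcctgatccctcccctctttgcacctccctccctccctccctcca
Col6a2: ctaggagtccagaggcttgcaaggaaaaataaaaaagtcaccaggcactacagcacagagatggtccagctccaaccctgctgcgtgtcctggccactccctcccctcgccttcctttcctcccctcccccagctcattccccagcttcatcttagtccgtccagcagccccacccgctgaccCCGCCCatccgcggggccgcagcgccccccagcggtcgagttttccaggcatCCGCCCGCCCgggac
Col6a3: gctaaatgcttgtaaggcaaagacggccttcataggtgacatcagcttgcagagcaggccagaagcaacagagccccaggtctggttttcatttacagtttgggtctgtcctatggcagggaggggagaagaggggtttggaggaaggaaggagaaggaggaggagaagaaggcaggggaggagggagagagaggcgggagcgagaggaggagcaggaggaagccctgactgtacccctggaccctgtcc
Col1a2: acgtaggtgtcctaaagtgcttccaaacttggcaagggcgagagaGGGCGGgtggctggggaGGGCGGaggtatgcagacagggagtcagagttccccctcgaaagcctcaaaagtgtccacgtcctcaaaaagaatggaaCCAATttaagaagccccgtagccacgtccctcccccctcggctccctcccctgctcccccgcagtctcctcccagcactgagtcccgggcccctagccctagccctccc
Col3a1: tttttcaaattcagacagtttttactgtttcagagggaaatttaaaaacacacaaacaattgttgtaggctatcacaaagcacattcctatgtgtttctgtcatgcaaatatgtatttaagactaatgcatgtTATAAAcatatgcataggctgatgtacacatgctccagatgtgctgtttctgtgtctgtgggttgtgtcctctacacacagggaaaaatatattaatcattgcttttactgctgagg
Col18a1 upstream start: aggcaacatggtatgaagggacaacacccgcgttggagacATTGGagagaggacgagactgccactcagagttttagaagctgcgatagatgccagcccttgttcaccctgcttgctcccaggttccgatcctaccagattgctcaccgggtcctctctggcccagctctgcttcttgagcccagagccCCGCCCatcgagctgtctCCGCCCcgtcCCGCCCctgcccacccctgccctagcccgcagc
Col18a1 downstream start: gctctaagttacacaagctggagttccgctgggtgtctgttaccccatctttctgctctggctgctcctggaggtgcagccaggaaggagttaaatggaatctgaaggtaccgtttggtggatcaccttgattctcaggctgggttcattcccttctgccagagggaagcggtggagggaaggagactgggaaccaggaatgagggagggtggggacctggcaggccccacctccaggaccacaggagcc

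Col4a1 and Col4a2, the most widespread type IV chains, are transcribed away from each other from a shared region of chromosome 8. In RefSeq their first bases overlap by 22 bases, and the deposited starts leave 2 bases between them. The region, chr8:11312775-11312856 on the plus strand of GRCm38.p6, has these 22 bases in capitals with 30 bases on either side.
Col4a1 and Col4a2: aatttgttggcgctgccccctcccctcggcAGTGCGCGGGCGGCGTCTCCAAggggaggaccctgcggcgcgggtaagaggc

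Among the windows of the collagen genes in the RefSeq promoter table (38 windows of 35 genes, of 44), GGGCGG or its complement was found in 22 (57.9%), against 32.7% of all 32851 windows. CCAAT was found in 13 collagen windows (34.2%), against 33.8% of all windows, and TATAAA in 5 (13.2%), against 12.4%. Both strands were searched, and neighbouring motifs can share bases at their ends. Among the windows printed, TATAAA was found in Col3a1 alone, and Col6a1, Col6a3 and the downstream start of Col18a1 held none of the 3 motifs. A match describes the letters only.

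Collagen RNA as a whole was higher in CSF1 libraries. The 44 genes summed to 156, 239 and 85.2 FPKM in CSF1 libraries 3, 5 and 8, against 16.0, 18.5 and 16.7 FPKM in WT libraries 3, 5 and 8. The groups did not overlap, and the CSF1 libraries spread far more than the WT libraries. In bulk RNA, fewer cells of a type and less RNA per cell cannot be told apart.

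The classes were not raised alike. Fibrillar genes summed to 75.2, 120.6 and 25.5 FPKM in CSF1 libraries 3, 5 and 8, against 0.858, 2.35 and 1.72 FPKM in WT libraries. Type IV genes summed to 25.9, 35.2 and 20.7 FPKM in CSF1 and to 3.23, 2.52 and 3.66 FPKM in WT libraries. The other types summed to 55.3, 83.4 and 38.9 FPKM in CSF1 and to 11.96, 13.6 and 11.3 FPKM in WT libraries. No class overlapped between groups. The fibrillar genes held 48.0%, 50.4% and 29.99% of collagen FPKM in CSF1 libraries, against 5.35%, 12.7% and 10.3% in WT libraries. The other types held 35.4%, 34.9% and 45.7% in CSF1, against 74.5%, 73.7% and 67.8% in WT libraries. The share of type IV overlapped, at 14.7% to 24.3% in CSF1 and 13.6% to 21.9% in WT libraries. These sums and shares were not tested.

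**Figure D1:**
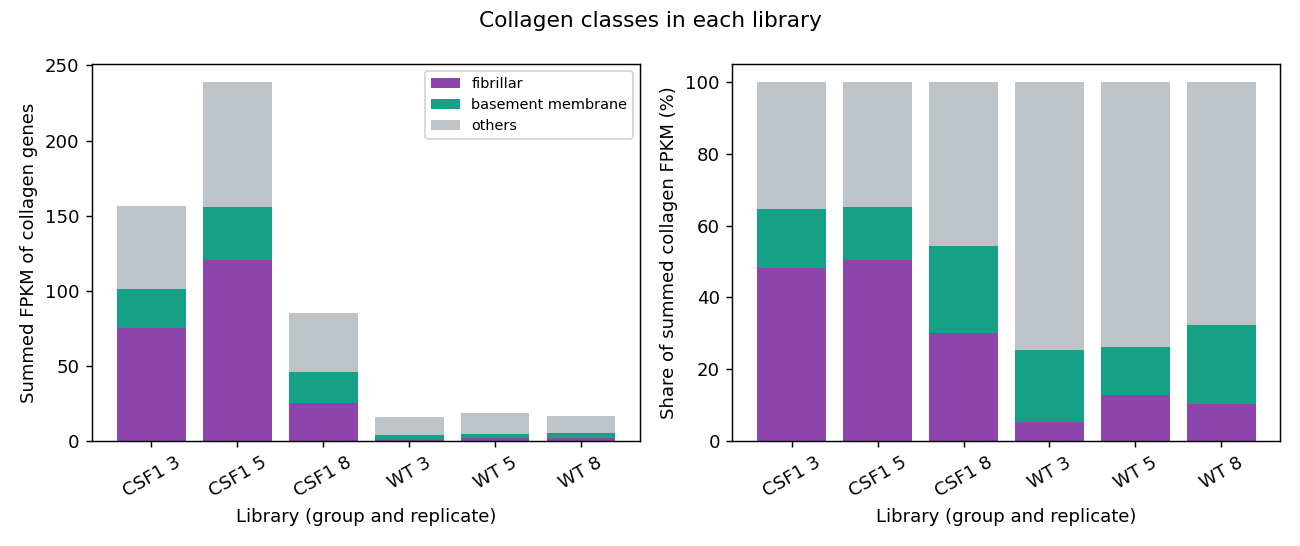
Stacked bars of the summed FPKM of each collagen class (left) and of its share of all collagen FPKM in percent (right), with a bar for each of libraries 3, 5 and 8 of CSF1 and WT. Fibrillar genes held 29.99% to 50.4% of collagen FPKM in CSF1 and 5.35% to 12.7% in WT libraries.

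Of the 44 genes, 27 were higher in every CSF1 library than in any WT library, 1 was lower and 16 overlapped. Over all 17920 genes detected in any library, 28.6% were higher without overlap. The 3 genes Col9a1, Col22a1 and Col26a1 were listed at 0 in all 6 libraries. In all, 3 genes were listed at 0 in every CSF1 library and 10 in every WT library. The matching counts over all genes were not taken, and WT libraries were the shallower ones, so this contrast is a description.

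For the test, 18 collagen genes reached an average of 1 FPKM across the 6 libraries. By limma over 10951 genes, at an adjusted p of 0.05, 14 of these rose and 1 fell, where 24.9% of all tested genes rose and 7.47% fell. Without overlap, 14 of the 18 were higher and 1 was lower, against 34.7% and 13.1% of all tested genes. The median log2 change of the 18 was 2.07, against 0.17 for all tested genes. However, 13 of the 18 had a WT mean under 1 FPKM and reached the test through their CSF1 level, so these counts are a description. Only 5 genes had a WT mean of at least 1 FPKM, of which Col4a1 and Col18a1 rose, Col20a1 fell, and Col6a3 and Col7a1 did not pass.

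**Figure D2:**
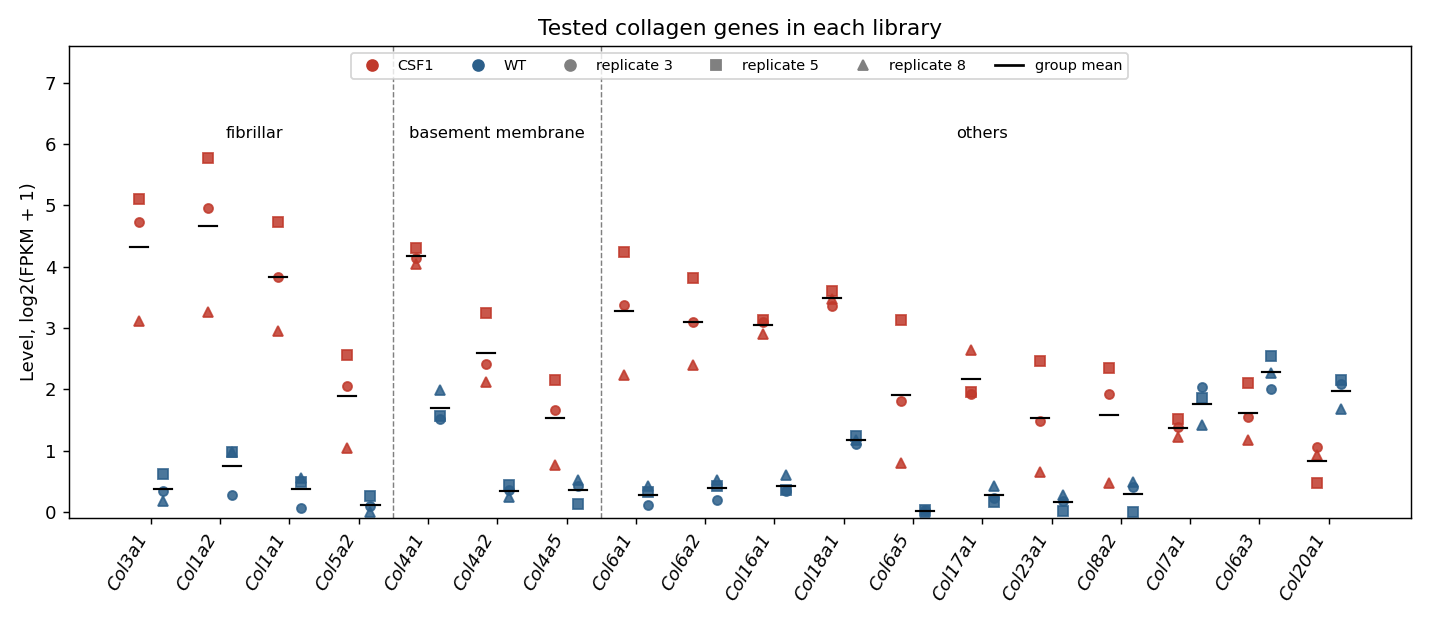
Level of the 18 tested collagen genes in each library as log2(FPKM + 1), by class, with CSF1 (red) left of WT (blue), a marker shape per library number and a bar at each group mean. CSF1 points lie above the WT points for 14 genes, and below them for Col20a1.

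Among the fibrillar genes, types I, III and V carried nearly all of the signal. All 4 tested fibrillar genes rose, with a median log2 change of 3.69, where 24.9% of all tested genes rose. All 4 had a WT mean under 1 FPKM and reached the test through CSF1, so this count is a description. Each change is the difference CSF1 minus WT in mean log2(FPKM + 1), a scale that understates changes of low genes, with SE.

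Col1a1 (chr11:94936270-94951856, mm10) and Col1a2 (chr6:4505697-4541543) encode the chains of type I collagen, the main fibril of most connective tissue. Col1a1 was at 13.2, 25.5 and 6.75 FPKM in CSF1 libraries 3, 5 and 8, against 0.0489, 0.414 and 0.467 FPKM in WT libraries 3, 5 and 8. Its log2 change was 3.46 ± 0.40 (limma adjusted p = 0.000381). Every CSF1 library lay far above every WT library. Col1a2 was at 29.98, 53.8 and 8.64 FPKM in CSF1, against 0.210, 0.967 and 0.977 FPKM in WT libraries, a log2 change of 3.92 ± 0.55 (limma adjusted p = 0.00101). Again the groups were apart, with CSF1 library 8 lowest among the CSF1 libraries.

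Col3a1 (chr1:45311538-45349706) encodes the chain of type III collagen, which forms fine fibrils together with type I. It was at 25.6, 33.3 and 7.69 FPKM in CSF1, against 0.275, 0.534 and 0.131 FPKM in WT libraries, a log2 change of 3.94 ± 0.46 (limma adjusted p = 0.000377). Col5a2, a chain of type V collagen, which sits inside type I fibrils and sets their width, was at 3.17, 4.92 and 1.06 FPKM in CSF1, against 0.0734, 0.196 and 0 FPKM in WT libraries. It rose by 1.77 ± 0.37 on the log2 scale (limma adjusted p = 0.00702). For both genes the groups did not overlap. The partner chain of Col5a2, Col5a1, stayed under a mean of 1 FPKM, and reached 1.89 FPKM in CSF1 library 5, against at most 0.130 FPKM in WT libraries.

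Of the type IV genes, 3 were tested and all 3 rose, where 24.9% of all tested genes rose. Their median log2 change was 2.24, against 0.17 for all tested genes. Col4a2 and Col4a5 had a WT mean under 1 FPKM and reached the test through CSF1. Col4a1 (chr8:11198423-11312826) was at 16.7, 18.8 and 15.6 FPKM in CSF1 libraries 3, 5 and 8, against 1.86, 1.98 and 2.99 FPKM in WT libraries. Its log2 change was 2.47 ± 0.18 (limma adjusted p = 4.34e-05), and its CSF1 libraries were close together. Col4a2 (chr8:11312829-11449287), the other chain of the common type IV network, was at 4.36, 8.45 and 3.36 FPKM in CSF1, against 0.287, 0.354 and 0.189 FPKM in WT libraries. It rose by 2.24 ± 0.29 (limma adjusted p = 0.000711), with no overlap.

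Col4a5, a chain of specialised basement membranes encoded on chromosome X, was at 2.18, 3.45 and 0.701 FPKM in CSF1, against 0.344, 0.103 and 0.440 FPKM in WT libraries. It rose by 1.16 ± 0.35 (limma adjusted p = 0.0343), a call that was lost under 8 alternatives. These were a pseudocount of 5, no filter, quantile normalization and leaving out CSF1 library 3, CSF1 library 5 or any WT library, with limma adjusted p from 0.0516 to 0.263. The partner chains Col4a3, Col4a4 and Col4a6 lay under the filter. They peaked at 1.59, 1.21 and 1.69 FPKM in CSF1 library 5, and at 0.0672, 0.0451 and 0.638 FPKM among WT libraries. Col4a3 and Col4a4 did not overlap between groups, while Col4a6 did.

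**Figure D3:**
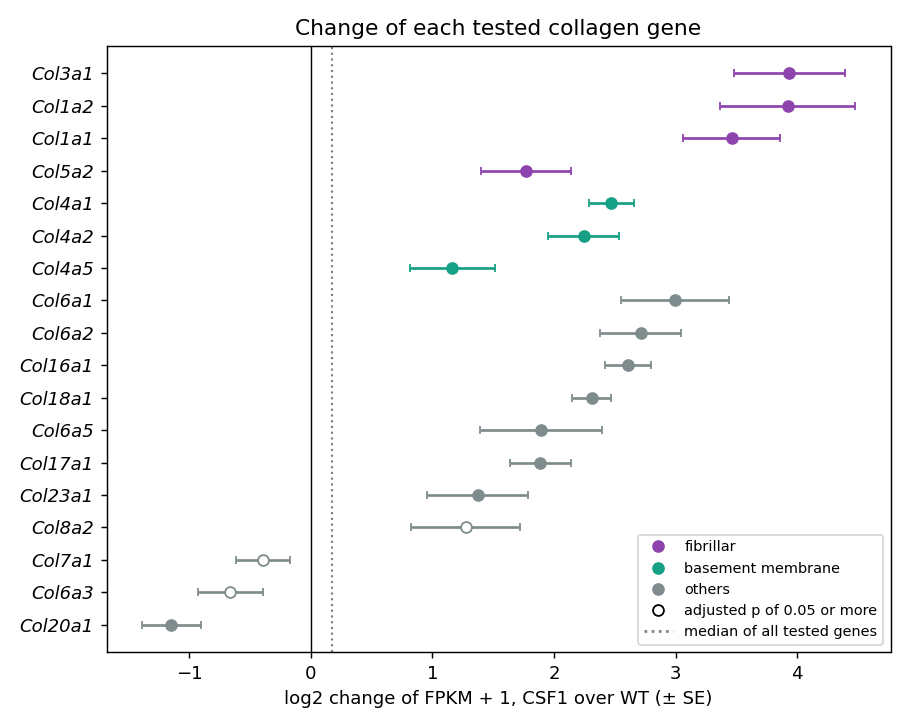
Log2 change of CSF1 over WT in log2(FPKM + 1) for the 18 tested collagen genes, with bars of 1 limma standard error, coloured by class, open where the gene did not pass, and a dotted line at the median of all tested genes (0.17). The changes run from -1.15 for Col20a1 to 3.94 for Col3a1.

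The remaining types were mixed: of 11 tested genes, 7 rose, 1 fell and 3 did not pass, with a median log2 change of 1.89. Over all tested genes, 24.9% rose and 7.47% fell, with a median of 0.17. All of the 7 but Col18a1 had a WT mean under 1 FPKM and reached the test through CSF1. Type VI collagen, which forms beaded filaments near the cell surface, held both genes that rose and a gene that did not pass. Col6a1 (chr10:76708792-76726044) was at 9.34, 18.0 and 3.70 FPKM in CSF1, against 0.0833, 0.250 and 0.342 FPKM in WT libraries. Its log2 change was 3.00 ± 0.44 (limma adjusted p = 0.00126). Col6a2 (chr10:76595756-76623404) was at 7.56, 13.02 and 4.26 FPKM in CSF1, against 0.151, 0.349 and 0.439 FPKM in WT libraries, a log2 change of 2.71 ± 0.34 (limma adjusted p = 0.000534). Neither overlapped between groups.

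Col6a3 (chr1:90766860-90843971), the large chain that joins those products in the common type VI trimer, was lower on average in CSF1. It was at 1.94, 3.31 and 1.27 FPKM in CSF1, against 3.04, 4.84 and 3.83 FPKM in WT libraries. The groups overlapped, and the log2 change of -0.66 ± 0.27 did not pass (limma adjusted p = 0.0949). It passed as lower under quantile normalization (-1.12, limma adjusted p = 0.0140), median-ratio scaling (-0.83, 0.0350) and without CSF1 library 5 (-0.91, 0.0338). Its mean was the highest of any collagen gene in WT libraries, at 3.91 ± 0.904 FPKM (SD, n = 3). The shorter of its listed forms (9020 bases) held 69.8% to 80.1% of its FPKM in CSF1 and 64.8% to 80.5% in WT libraries.

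Col6a5, a chain related to Col6a3, was at 2.50, 7.74 and 0.751 FPKM in CSF1, against 0.0241, 0.0220 and 0 FPKM in WT libraries. It rose by 1.89 ± 0.50 (limma adjusted p = 0.0204), a call lost with a pseudocount of 5, with no filter, under quantile normalization and without any WT library, with limma adjusted p from 0.0607 to 0.0783. Col6a4 and Col6a6 were low, with at most 0.262 and 0.190 FPKM in a CSF1 library and 0 in every WT library.

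Col18a1 (chr10:77052179-77166530) encodes a proteoglycan collagen of basement membranes whose end fragment is known as endostatin. It was at 9.31, 11.2 and 10.2 FPKM in CSF1, against 1.17, 1.35 and 1.26 FPKM in WT libraries, a log2 change of 2.31 ± 0.16 (limma adjusted p = 3.53e-05). The libraries within each group lay close together. All of its FPKM was assigned to the listed transcript from the upstream start, and the transcript from the downstream start was listed at 0 in all 6 libraries. Its relative Col15a1 reached 1.35 FPKM in CSF1 library 5 and was listed at 0 in every WT library.

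Col16a1, a fibril-associated chain, was at 7.59, 7.78 and 6.45 FPKM in CSF1, against 0.264, 0.280 and 0.523 FPKM in WT libraries. It rose by 2.61 ± 0.19 (limma adjusted p = 3.80e-05). Col17a1, a membrane-spanning chain of the hemidesmosome, by which basal epithelial cells hold on to the basement membrane, was at 2.78, 2.87 and 5.21 FPKM in CSF1, against 0.180, 0.126 and 0.346 FPKM in WT libraries. It rose by 1.89 ± 0.25 (limma adjusted p = 0.000783). Neither gene overlapped between groups, and Col17a1 was highest in CSF1 library 8, where most collagens were lowest. Of 7 tested basal cell markers 6 rose, where 24.9% of all tested genes rose. The list summed to 555 to 867 FPKM in CSF1 and 65.7 to 80.1 FPKM in WT libraries, with library 8 the highest CSF1 library. Krt15 and Krt17 made up most of that sum, at 356 and 300 FPKM in CSF1 library 8. Trp63, which lay under the filter, was instead lowest in CSF1 library 8, at 1.22, 1.12 and 0.338 FPKM in CSF1 libraries 3, 5 and 8. In WT libraries it was at 0.364, 0 and 0.0923 FPKM, so the groups overlapped. Ngfr, also under the filter, overlapped too, at 0.0450 to 0.208 FPKM in CSF1 and 0.0358 to 0.157 FPKM in WT libraries. Dst and Itga6 were highest in CSF1 library 3. The part of basal cells in the result was not tested.

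Col20a1 (chr2:180986535-181017540), a fibril-associated chain, was the gene that fell. It was at 1.09, 0.397 and 0.915 FPKM in CSF1, against 3.25, 3.43 and 2.21 FPKM in WT libraries. Its log2 change was -1.15 ± 0.24 (limma adjusted p = 0.00720), and the groups did not overlap. Col7a1, whose product forms the fibrils that anchor epithelium to the tissue beneath, was at 1.61, 1.86 and 1.34 FPKM in CSF1, against 3.10, 2.63 and 1.67 FPKM in WT libraries. It overlapped and did not pass (log2 change -0.39 ± 0.22, limma adjusted p = 0.217), though it passed as lower under quantile normalization (-0.91, 0.0172).

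Col23a1, a transmembrane chain, was at 1.79, 4.53 and 0.575 FPKM in CSF1, against 0.132, 0.0157 and 0.216 FPKM in WT libraries. It rose by 1.37 ± 0.42 (limma adjusted p = 0.0350), and the call was lost under the same 8 alternatives as that of Col4a5, with limma adjusted p from 0.0610 to 0.219. Col8a2, a short chain of hexagonal networks, was at 2.79, 4.07 and 0.384 FPKM in CSF1, against 0.335, 0 and 0.411 FPKM in WT libraries. CSF1 library 8 lay among the WT libraries, and the log2 change of 1.27 ± 0.45 did not pass (limma adjusted p = 0.0617). Without that library it passed at 1.83 (limma adjusted p = 0.00132).

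The 26 genes under a mean of 1 FPKM were at 0.638 FPKM or less in every WT library. Of these, 13 were higher without overlap, where 28.6% of all genes detected in any library were. Of the 26, 9 reached 1 FPKM in some library, in every case a CSF1 library. Besides those already given, Col12a1 reached 1.06, Col13a1 3.40, Col14a1 1.54 and Col8a1 1.57 FPKM. In a limma fit with no filter on level, 41 collagen genes could be fitted, of which 17 rose and 1 fell, where 16.2% of all genes rose. Their median log2 change was 0.87, against 0.09 for all genes. The low genes that rose there were Col5a1, Col8a1, Col11a1, Col12a1, Col14a1 and Col15a1, which join fibrils, coat them or form networks.

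Chains of a shared trimer need not move together, so ratios of chain to chain were taken within each library, which removes the library's scaling. Of 12 pairs listed, 6 had both chains above 0 in all libraries and entered an exact permutation test (two-sided) over samples, whose smallest possible p is 0.1. None could pass 0.05. The ratio Col6a3/Col6a1 was 0.208, 0.184 and 0.344 in CSF1 libraries 3, 5 and 8, against 36.5, 19.3 and 11.2 in WT libraries. The mean log2 ratio differed by -6.40 with no overlap (exact p = 0.1, adjusted over the 6 pairs 0.2). In WT libraries Col6a3 thus exceeded its partner, and in CSF1 libraries it was below it.

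Col4a2/Col4a1 was 0.262, 0.449 and 0.215 in CSF1, against 0.155, 0.179 and 0.0633 in WT libraries, a log2 difference of 1.28 with no overlap (exact p = 0.1, adjusted 0.2). Col6a2/Col6a1 was 0.810, 0.723 and 1.15 in CSF1, against 1.82, 1.39 and 1.28 in WT libraries, a log2 difference of -0.76 with no overlap (exact p = 0.1, adjusted 0.2). Col1a2/Col1a1 overlapped, at 2.28, 2.11 and 1.28 in CSF1 and 4.29, 2.34 and 2.09 in WT libraries (log2 difference -0.59, exact p = 0.3, adjusted 0.36). Col4a4/Col4a3 and Col3a1/Col1a1 overlapped too, with log2 differences of -1.30 (exact p = 0.3) and 0.17 (exact p = 0.9). Leaving out a library moved these: without WT library 5 Col4a4/Col4a3 was -0.49, without WT library 3 it was -2.08, and without WT library 8 Col4a2/Col4a1 was 0.82 and Col3a1/Col1a1 -0.92. WT ratios of the low chains rest on little depth: the deposited mean read depth of Col6a1 was 0.266, 0.877 and 0.930 in WT libraries.

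**Figure D4:**
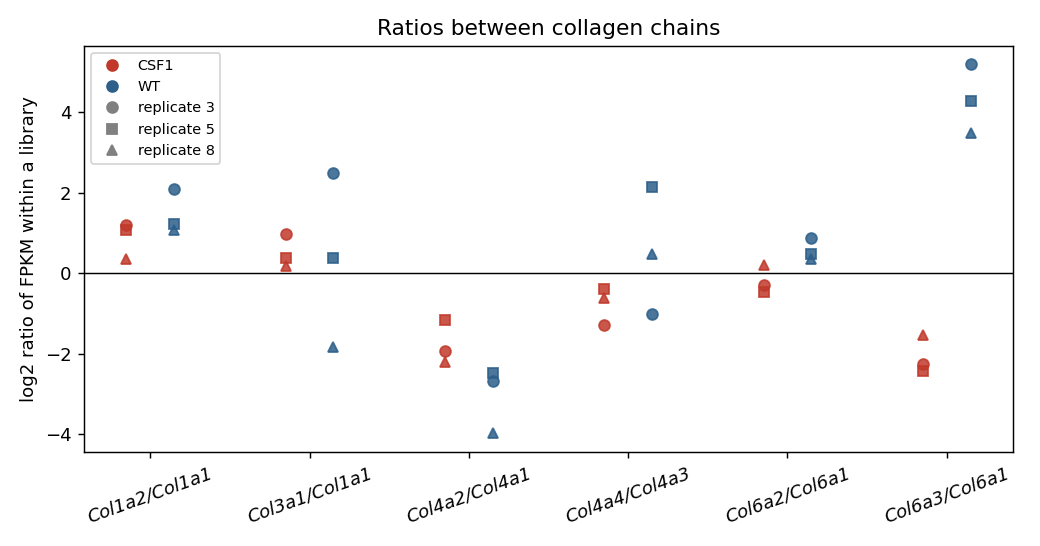
Log2 of the FPKM ratio of chain to chain within each library for the 6 testable pairs, CSF1 (red) left of WT (blue), with a marker shape per library number. For Col6a3/Col6a1 the plotted values stand for ratios of 0.184 to 0.344 in CSF1 and of 11.2 to 36.5 in WT libraries.

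The CSF1 libraries were not alike. For 15 of the 18 tested genes, library 5 was highest, library 3 next and library 8 lowest. The largest of the 3 values over the smallest was 10.6 for Col8a2, 6.23 for Col1a2, 4.33 for Col3a1 and 3.78 for Col1a1. It was 1.204 for Col18a1, 1.206 for Col4a1 and 1.206 for Col16a1. The fibrillar and type VI genes hence varied among CSF1 libraries far more than these 3.

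The summed markers of connective tissue cells were higher in CSF1 libraries too. All 8 tested fibroblast markers rose, where 24.9% of all tested genes rose. However, 7 of the 8, all but Dcn, had a WT mean under 1 FPKM and reached the test through CSF1. The fibroblast list summed to 444 to 618 FPKM in CSF1 and 90.1 to 107 FPKM in WT libraries. Without Dcn, which made up most of it, the fibroblast list came to 72.7, 96.3 and 50.5 FPKM in CSF1 libraries 3, 5 and 8, against 2.85, 1.93 and 5.06 FPKM in WT libraries. That sum had the same order among CSF1 libraries as most collagens. Pdgfra, Fbln1, Fbln2 and Mfap5 had it too, while Lum, Dpt, Pi16, Thy1 and Gli1 did not. Lum was at 7.06, 12.3 and 9.38 FPKM and Dpt at 8.93, 6.85 and 7.89 FPKM in CSF1 libraries 3, 5 and 8. Thy1 and Gli1, both under 1 FPKM, were highest in CSF1 library 8. All 6 tested smooth muscle markers rose (3 of them with a WT mean under 1 FPKM), with a sum of 117, 131 and 77.2 FPKM in CSF1, against 6.74, 16.1 and 9.24 FPKM in WT libraries. All 4 tested endothelial markers rose, each with a WT mean under 1 FPKM, and the list summed to 15.3 to 20.3 FPKM in CSF1 and 1.44 to 4.02 FPKM in WT libraries. Pericyte markers lay under the filter, at 3.09 to 4.33 FPKM in CSF1 and 0.315 to 1.02 FPKM in WT libraries.

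Summed macrophage markers were highest in CSF1 library 8, where most collagens were lowest, at 605, 746 and 2432 FPKM in libraries 3, 5 and 8, against 16.6, 19.7 and 93.1 FPKM in WT libraries. Lyz2 made up most of the sum in CSF1 library 8, at 1371 FPKM. Mrc1 alone on the list was lowest in that library, at 5.72, 6.83 and 5.26 FPKM in CSF1 libraries 3, 5 and 8. All 10 markers rose, 5 of them with a WT mean under 1 FPKM, where 24.9% of all tested genes rose. All 7 markers of proximal luminal cells rose as well, at 7391 to 10395 FPKM in CSF1 and 273 to 433 FPKM in WT libraries. No marker of these lists was at 0 in every library of a group. Adipocyte markers came to 19.2 to 58.6 FPKM in CSF1 and 4.13 to 10.2 FPKM in WT libraries, with Plin1 and Plin4 at 0 in every WT library and Plin4 also at 0 in every CSF1 library. The part of any of these cells in the collagen result was not tested.

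**Figure D5:**
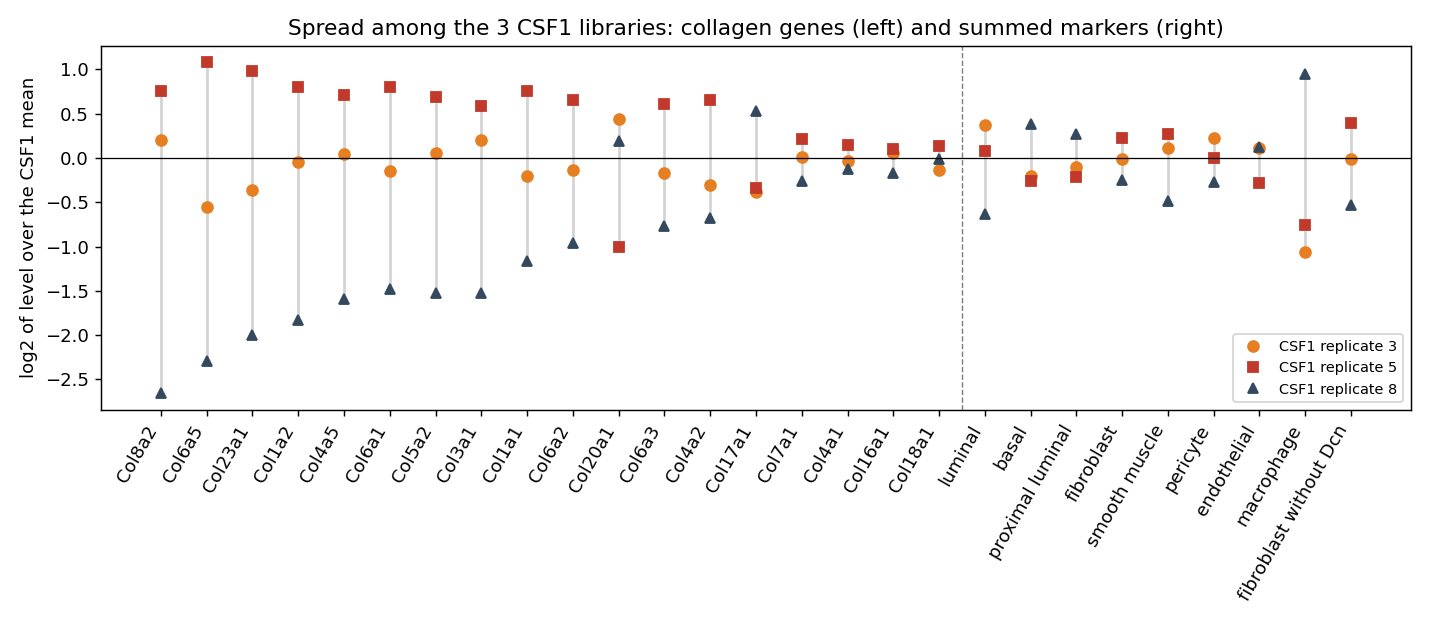
Log2 of each CSF1 library's level over the CSF1 mean, for the 18 tested collagen genes (left, by size of spread) and for summed marker lists (right). Library 8 is lowest for most collagens and for the fibroblast list, and highest for the macrophage list.

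The ratio of Col6a3 to Dcn, the most abundant fibroblast marker, was 0.00427, 0.00635 and 0.00323 in CSF1 libraries 3, 5 and 8, against 0.0318, 0.0549 and 0.0377 in WT libraries. That of Col1a1 to Dcn was 0.0290, 0.0488 and 0.0171 in CSF1, against 0.000511, 0.00470 and 0.00460 in WT libraries. The groups did not overlap for either ratio to Dcn. The ratio of Col6a3 to Lum, another fibroblast marker, was 0.275, 0.270 and 0.136 in CSF1, against 16.4, 14.3 and 3.96 in WT libraries, also with no overlap. That of Col1a1 to Lum overlapped, at 1.87, 2.08 and 0.719 in CSF1 and 0.264, 1.23 and 0.483 in WT libraries. The same held against Pdgfra, with no overlap for Col6a3 (0.273 to 0.702 in CSF1, 24.5 to 107.5 in WT). Col1a1 overlapped there (2.10 to 3.72 in CSF1, 0.495 to 9.19 in WT). Lower ratios to Lum and Pdgfra were not particular to Col6a3. Col4a1, which rose, was also lower without overlap against Lum (1.53 to 2.36 in CSF1, 3.09 to 10.04 in WT). Against Pdgfra Col4a1 was lower too (1.55 to 8.61 in CSF1, 18.8 to 43.9 in WT). Col18a1, which rose as well, was lower without overlap against Pdgfra and overlapped against Lum. Against Dcn both Col4a1 and Col18a1 were instead higher without overlap. These ratios were not tested, and those to Lum and Pdgfra rest on low WT levels.

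Genes that process or bind collagen were counted by role, from 84 listed genes found in the tables. Among the 52 that were tested, 31 rose and 4 fell, while 17 did not pass, where 24.9% of all tested genes rose and 7.47% fell. Their median log2 change was 1.52, against 0.17 for all tested genes, and 19 of the 52 had a WT mean under 1 FPKM and reached the test through their CSF1 level. Of the 31 rises, 1 lay in modification (12 tested genes) and 2 in folding and export (10 tested genes). Of the 19 genes with a WT mean under 1 FPKM, 0 and 1 lay in these roles. The filter thus bore unequally on the roles, and the counts by role are a description.

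Of 12 tested genes for proline and lysine modification, 1 rose and 3 fell, where 24.9% of all tested genes rose and 7.47% fell. P4hb, a subunit of prolyl 4-hydroxylase that also serves as a general protein disulfide isomerase, averaged 554 ± 72.1 FPKM in CSF1 and 1126 ± 213 FPKM in WT libraries (SD, n = 3 each), a log2 change of -1.01 (limma adjusted p = 0.00272). Ppib, a prolyl isomerase, averaged 498 ± 35.3 FPKM in CSF1 and 956 ± 96.3 FPKM in WT libraries (log2 change -0.94, limma adjusted p = 0.000968). P3h4, a partner of the lysyl hydroxylase complex, fell too (7.86 ± 0.799 FPKM in CSF1, 19.1 ± 5.52 FPKM in WT), and Crtap, of the prolyl 3-hydroxylase complex, rose (7.84 ± 1.36 FPKM in CSF1, 2.84 ± 1.27 FPKM in WT).

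Of 10 tested genes for folding and export, 2 rose and 1 fell, shares near those of all tested genes. Serpinh1, the chaperone HSP47 that is specific to collagen, averaged 38.0 ± 24.8 FPKM in CSF1 and 1.67 ± 0.168 FPKM in WT libraries (log2 change 3.63, limma adjusted p = 0.000553). Sparc, which binds collagen on its way out, averaged 106 ± 76.0 FPKM in CSF1 and 4.21 ± 1.76 FPKM in WT libraries (log2 change 4.13, limma adjusted p = 0.000557). The gene that fell was Mia3, which loads collagen into export vesicles, at 15.2 FPKM in CSF1 and 22.6 FPKM in WT libraries on average (log2 change -0.57, limma adjusted p = 0.0459), named after its values were seen. Sec24d, a coat protein of export vesicles, did not pass, at 29.1 ± 5.23 FPKM in CSF1 and 36.9 ± 5.26 FPKM in WT libraries.

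All 3 tested genes of propeptide removal rose, where 24.9% of all tested genes rose, and 2 of them had a WT mean under 1 FPKM. The 3 included Bmp1, the protease (5.99 ± 2.16 FPKM in CSF1, 0.731 ± 0.227 FPKM in WT), and its enhancer Pcolce (37.7 ± 25.1 FPKM in CSF1, 1.37 ± 1.19 FPKM in WT). Both tested cross-linking genes rose, of which 1, Lox, had a WT mean under 1 FPKM. Lox, lysyl oxidase, averaged 14.4 ± 7.03 FPKM in CSF1 and 0.396 ± 0.457 FPKM in WT libraries. Tgm2, a transglutaminase, averaged 27.5 ± 5.08 FPKM in CSF1 and 2.08 ± 0.360 FPKM in WT libraries. All 10 tested fibril partners rose, of which 8 had a WT mean under 1 FPKM and so reached the test through CSF1. They share Dcn, Lum and Fbln1 with the fibroblast list, so these counts overlap. They included the small proteoglycans Dcn (457 ± 64.1 FPKM in CSF1, 95.2 ± 6.77 FPKM in WT), Bgn (37.0 ± 31.0 in CSF1, 0.870 ± 0.164 in WT) and Ogn (19.0 ± 6.17 in CSF1, 0.880 ± 0.312 in WT).

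Of 5 tested basement membrane partners, 2 (Nid1 and Lamb1) had a WT mean under 1 FPKM and reached the test through CSF1. In all, 4 of the 5 rose, where 24.9% of all tested genes rose. The 4 included Nid1, which links laminin to type IV collagen (5.31 ± 3.30 FPKM in CSF1, 0.0853 ± 0.0768 FPKM in WT), and the laminin chains Lamb1 (2.46 ± 0.759 in CSF1, 0.127 ± 0.135 in WT) and Lamc1 (6.77 ± 0.974 in CSF1, 2.53 ± 0.797 in WT). Lama5, a laminin chain of epithelia, did not pass, at 8.35 ± 1.501 FPKM in CSF1 and 6.59 ± 1.93 FPKM in WT libraries. All 4 tested receptors rose, of which 2 (Cd36 and Mrc2) had a WT mean under 1 FPKM and reached the test through CSF1. Itgb1, the shared chain of collagen-binding integrins, averaged 80.9 ± 6.25 FPKM in CSF1 and 25.3 ± 3.38 FPKM in WT libraries. The collagen receptor kinase Ddr1 averaged 35.6 ± 5.18 FPKM in CSF1 and 23.3 ± 5.80 FPKM in WT libraries. Cd36, a scavenger receptor that binds collagen, averaged 10.2 ± 6.19 FPKM in CSF1 and 0.793 ± 0.751 FPKM in WT libraries.

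Of 6 tested genes for collagen-cleaving enzymes, 3 had a WT mean under 1 FPKM and reached the test through CSF1. In all, 5 of the 6 rose, where 24.9% of all tested genes rose. The membrane-bound proteases Mmp14 (38.2 ± 11.7 FPKM in CSF1, 2.21 ± 1.23 FPKM in WT) and Mmp15 (35.8 ± 12.2 in CSF1, 11.2 ± 5.19 in WT) and the gelatinase Mmp2 (22.7 ± 18.0 in CSF1, 0.517 ± 0.318 in WT) were among them. The other cleaving enzymes that rose were Ctsk and Mmp13, and Pcolce2, Agrn and Mrc2 completed the rises for propeptide removal, basement membrane partners and receptors, all 5 named after their values were seen. Mrc2 was listed at 0 in every WT library. Among named genes that rose in these roles, limma adjusted p ran from 1.07e-05 for Tgm2 to 0.0419 for Ddr1.

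The call direction of genes in general depends on scaling. Over all tested genes, 76.95% of calls were higher in CSF1, against 41.8% under quantile normalization and 54.0% under median-ratio scaling. The median over all genes was 0.17 as deposited, -0.16 under quantile normalization and -0.03 under median-ratio scaling. The collagen calls stood at 14 higher and 1 lower as deposited, 11 and 3 under quantile normalization, and 14 and 2 under median-ratio scaling. Of the 44 genes, 13 share exon bases with another annotated gene, at most 6.07% of a gene's exon bases, and libraries made without strand cannot part such reads.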

How the data were processed

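RNA of sorted mouse prostate luminal cells was sequenced in 3 CSF1 and 3 WT libraries, per the labels' protocols from cDNA of a SMART-Seq kit and sequenced on a HiSeq machine. For library construction the labels give Nextera XT in 1 place and TruSeq DNA in another. Per the submitters' processing notes, bcl2fastq 1.8.3, TopHat and Cufflinks were used with mm10, and no version is stated for TopHat or Cufflinks. Per the file headers, the authors deposited FPKM of 34535 transcripts per library with their confidence bounds. The deposited coverage is a signal giving each transcript's mean read depth. Fragment totals are not given, so no counting intervals were computed.

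FPKM were summed per gene symbol and used as deposited. The 9 genes with a failed or skipped status in any library were left out, none of them a collagen. The 10951 genes averaging 1 FPKM or more were tested on log2(FPKM + 1) by limma 3.58.1, under R 4.3.3 (intensity trend, two-sided, Benjamini-Hochberg over all tested genes, threshold 0.05). A fit over all genes was also tested on simulated data. Chain ratios were tested by exact permutation over samples.

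The collagen genes, classes, gene lists and tests were chosen with earlier results of these data known. Every collagen gene at a mean of at least 1 FPKM was named, those below it where a library reached 1 FPKM or where they form a listed pair, and per pathway role the 2 most abundant and the 2 most changed genes. Exon overlaps came from GENCODE M21, and sequences from RefSeq on GRCm38.p6, where 35 of 44 genes had an entry.

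The numbers 3, 5 and 8 recur in both groups' titles. Deviations from the group means correlated by 0.257, 0.111 and 0.182 between libraries of the same number, over all tested genes. Between libraries of unlike numbers they ran from -0.227 to -0.00641. Deviations within a group sum to 0, so positive and negative correlations offset each other. The numbers may thus pair the samples, but the main limma fit and the permutation test took the samples as unpaired. Pairing entered only in the replicate block, an alternative limma fit. Such a pairing is read from these data, as the labels do not state what the numbers mean.

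Alternatives were other pseudocounts, other filters, quantile normalization, median-ratio scaling, no trend, the failed-status genes kept, the replicate block, other class limits, and leaving out each library. Leaving out both libraries numbered 8 was chosen after seeing the data.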

Additional observations from a re-analysis of the deposited data

How the results depend on the processing

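Of the tests on collagen genes, the count of 15 past the threshold (14 higher, 1 lower) was 12 to 16 when leaving out each library in turn, with 11 to 15 higher and 1 to 2 lower. With the replicate block, limma called 15 collagen genes, the same 15, so the pairing changed no collagen call. With the filter at 5 FPKM, 6 collagen genes passed, 6 higher and 0 lower, because fewer genes were tested, and the pathway genes came to 21 past the threshold and 17 higher. The collagen genes called lower were 3 under quantile normalization and 2 under median-ratio scaling. Over all genes, 1761 were higher with the filter at 5 FPKM and 1694 under quantile normalization, against 2731. Lower over all genes were 2362 under quantile normalization and 1757 under median-ratio scaling, against 818, with 468 to 834 when leaving out each library. Without both libraries numbered 8, an alternative chosen after seeing the data, 449 genes and 2 pathway genes were lower. The cause of these changes was not tested. Leaving out each library in turn, the log2 difference of Col3a1/Col1a1 ran from -0.92 without WT library 8 to 1.25 without WT library 3, and was -0.05 without CSF1 library 3. The other pairs kept their sign, at -2.08 (without WT library 3) to -0.49 (without WT library 5) for Col4a4/Col4a3, 0.82 (without WT library 8) to 1.57 for Col4a2/Col4a1, -0.79 to -0.27 (without WT library 3) for Col1a2/Col1a1, -0.95 to -0.61 for Col6a2/Col6a1 and -6.81 to -5.96 for Col6a3/Col6a1. With types VII, XV and XVIII counted as basement membrane, that class averaged 39.9995 FPKM in CSF1 and 6.86 FPKM in WT libraries, and the other types averaged 8.59 FPKM in WT libraries. Among single genes, the calls of Col4a5, Col6a5 and Col23a1 were the ones lost most often. The number of fragments behind FPKM is not given, so no counting intervals were computed for low WT levels. Their deposited confidence bounds did not enter the tests. In WT library 3 these ran from 0.0295 to 0.137 FPKM for Col6a1 and from 0.0119 to 0.0859 FPKM for Col1a1.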

Other observations

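Of genes with several listed transcripts, Col17a1 and Col4a5 had the most uneven assignment between libraries. The longer form of Col17a1 (5539 bases) held 83.0%, 57.7% and 66.7% of the gene's FPKM in CSF1 libraries 3, 5 and 8, against 0%, 0% and 89.7% in WT libraries 3, 5 and 8. The longer form of Col4a5 (6491 bases) held 57.6%, 17.1% and 38.7% in CSF1, against 100%, 0% and 0% in WT libraries. Both genes were under 0.5 FPKM in every WT library, and these shares were not tested. They were singled out after their values were seen.

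By subclass, transmembrane collagens summed to 6.02, 10.99 and 6.40 FPKM in CSF1, against 0.355, 0.142 and 0.615 FPKM in WT libraries. Fibril-associated collagens summed to 11.6, 9.79 and 9.61 FPKM in CSF1, against 3.61, 3.94 and 2.77 FPKM in WT libraries.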
